A study of Homo sapiens with 30 samples.

Results

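The 38 genes described here act in homologous recombination and the DNA damage response. They were chosen by symbol, among the 26228 genes of an RNA-Seq table, and all 38 were above the filter of a mean of 1 FPKM (fragments per kilobase of transcript, relative to the mapped reads of the library) that left 11575 genes to test. They comprise 5 genes of break sensing and resection, 2 chromatin mediators, 6 checkpoint kinases and activators, 5 genes of the BRCA complex, 7 strand exchange genes, 2 RecQ helicases, 8 subunits of the Fanconi core complex, and the group of FANCD2, FANCI, and USP1.

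Homologous recombination repairs a double-strand break by copying the intact sister chromatid. The MRE11A-RAD50-NBN complex binds the broken ends and, with RBBP8 and EXO1, cuts them back to single-stranded DNA, on which BRCA1, PALB2, BRCA2, and the strand exchange genes act to pair the end with its intact copy. ATM and ATR are the kinases that signal breaks and stalled replication forks, and the Fanconi proteins unhook DNA cross-links and feed them into the same pathway.

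The libraries came from SH-EP, an established human neuroblastoma (NB) cell line with a mesenchymal identity, and from 4 stable SH-EP lines that carry MYCN by retroviral transfer under an exogenous promoter, as WT, T58A, S62A, or T58A S62A. MYCN is the transcription factor amplified in high-risk NB, and T58 and S62 are phosphorylation sites that set the stability of the protein. Each of the 5 lines was grown in DMEM with 10% FBS and received DMSO or 1 μM CYC065, an inhibitor of CDK2 and CDK9, for 6 hours, with 3 libraries in each of the 10 groups. CDK9 releases paused RNA polymerase II into elongation.

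MYCN was listed at 0 FPKM in all 6 SH-EP libraries, a value that can also be a failed estimate, and was at 5.08 to 15.7 FPKM in the 12 DMSO libraries of the MYCN lines, with the S62A line lowest at 5.72 ± 0.778 (SD, n = 3). Of the 6 mesenchymal NB markers, all 6 averaged over 1 FPKM, with summed levels of 1564 to 5667 FPKM per library, whereas none of the 6 adrenergic markers did, with sums of 0 to 0.969, PHOX2A being at 0 throughout. Of 5 epithelial markers 3 averaged over 1 FPKM, with sums of 396 to 1746, and of 5 leukocyte markers 1 did, with sums of 2.57 to 36.7. Relative depth, read from the steps of low FPKM values and set to 1 for the deepest library, was 0.470 to 1 in DMSO and 0.293 to 0.554 in CYC065, so values after CYC065 are less precise. Nothing states that libraries of a group came from separate cultures, so p-values measure the spread between these libraries. Index sequences of SH-EP libraries recur among the MYCN-line libraries, so that the library pool and the line cannot be told apart.

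Promoter sequence was available for 35 of the 38 genes in RefSeq (GRCh38.p14, from 250 bases before to 50 after the annotated start). For each gene a single start was searched, and any other start of the gene was not. MYC family proteins bind the E-box CACGTG, and S-phase genes often carry E2F sites, searched here as TTTCGCGC, TTTGGCGC, or TTTCCCGC on both strands. An E-box was in 3 of the 35 promoters (8.57%), those of RAD50, BRCA2, and FANCC, against 10.6% of 9113 promoters of tested genes and 7.44% of all 27305 promoters. An E2F sequence was in 5 (14.3%), those of EXO1, TOPBP1, XRCC2, FANCC, and FANCD2, against 4.97% and 2.79%, and 44.4% of 36 promoters of replication genes held one. The mitotic CHR sequence TTTGAA was in 4 (11.4%), against 9.81% and 15.4%. The E-box and E2F motifs do not overlap each other as letter strings. The windows printed are those of the 3 genes with an E-box, to show where the possible MYCN site lies, and of EXO1 and FANCD2, which hold an E2F sequence and responded very differently to CYC065. Each runs 5′ to 3′ on the gene's strand from 100 bases before to 25 after the start, with the motif in capitals.
RAD50, chr5:132556877-132557001, plus strand: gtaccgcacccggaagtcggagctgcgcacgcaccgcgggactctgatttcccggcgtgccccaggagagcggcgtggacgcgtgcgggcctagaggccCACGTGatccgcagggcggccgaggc
BRCA2, chr13:32315408-32315532, plus strand: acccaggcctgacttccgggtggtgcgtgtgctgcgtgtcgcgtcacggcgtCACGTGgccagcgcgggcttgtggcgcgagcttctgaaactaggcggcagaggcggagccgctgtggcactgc
FANCC, chr9:95317685-95317809, minus strand: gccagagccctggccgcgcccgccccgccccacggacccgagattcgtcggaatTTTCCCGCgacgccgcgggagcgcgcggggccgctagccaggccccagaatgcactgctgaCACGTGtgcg
EXO1, chr1:241848104-241848228, plus strand: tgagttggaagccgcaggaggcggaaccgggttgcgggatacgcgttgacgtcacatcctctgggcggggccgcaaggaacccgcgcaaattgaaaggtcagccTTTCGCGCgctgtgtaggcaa
FANCD2, chr3:10026337-10026461, plus strand: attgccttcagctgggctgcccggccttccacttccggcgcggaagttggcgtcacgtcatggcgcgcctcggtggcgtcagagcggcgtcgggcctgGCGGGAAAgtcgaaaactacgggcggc
The BRCA2 E-box begins 48 bases before the start, and that of RAD50 spans it. In the FANCC window the E2F sequence shown lies before the start and the E-box after it. Its other E2F sequence and its CHR sequence lie farther upstream, outside the window. A match of letters is a description and no evidence of binding.

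The first comparison asked how these genes differ between the MYCN lines and SH-EP, in DMSO and on FPKM as deposited. SH-EP is the parental line, and no line with an empty vector is among the groups. Each form of MYCN was in a single line, so MYCN and the making of a stable line cannot be told apart. Averaged over the 4 MYCN lines, 19 of the 38 genes were higher than in SH-EP and 2 were lower, at a Benjamini-Hochberg adjusted p under 0.05 in limma over all 11575 genes, where 34.6% of all genes were higher and 26.3% lower. The median log2 difference of the 38 was 0.25, beside 0.06 over all tested genes, and the whole range was -0.37 to 0.86. By role, 4 of 7 strand exchange genes, 3 of 5 break sensing genes, and all 3 of FANCD2, FANCI, and USP1 were higher, whereas ATM, ATRIP, CHEK2, and NBN were among the 17 genes that gave no call. Some marker sums moved with this comparison. In DMSO the mesenchymal sum was 3184 to 3303 FPKM in SH-EP and 1564 to 2240 in the MYCN lines. The leukocyte sum was 15.9 to 19.6 and 2.57 to 7.26. The epithelial sum overlapped, at 637 to 697 and 396 to 856. The part of these sums in the result was not tested. In bulk libraries, fewer cells of a type and less RNA per cell cannot be told apart. By line, WT had 15 genes higher (31.6% of all genes), T58A 17 (30.9%), S62A 20 (31%), and T58A S62A 17 (31.2%), and these 4 contrasts share the 3 SH-EP libraries. In all 4 lines 11 genes were higher, and 13 were called in none. The like count over all tested genes was not made, so these counts do not set the 38 genes apart.

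**Figure D1:**
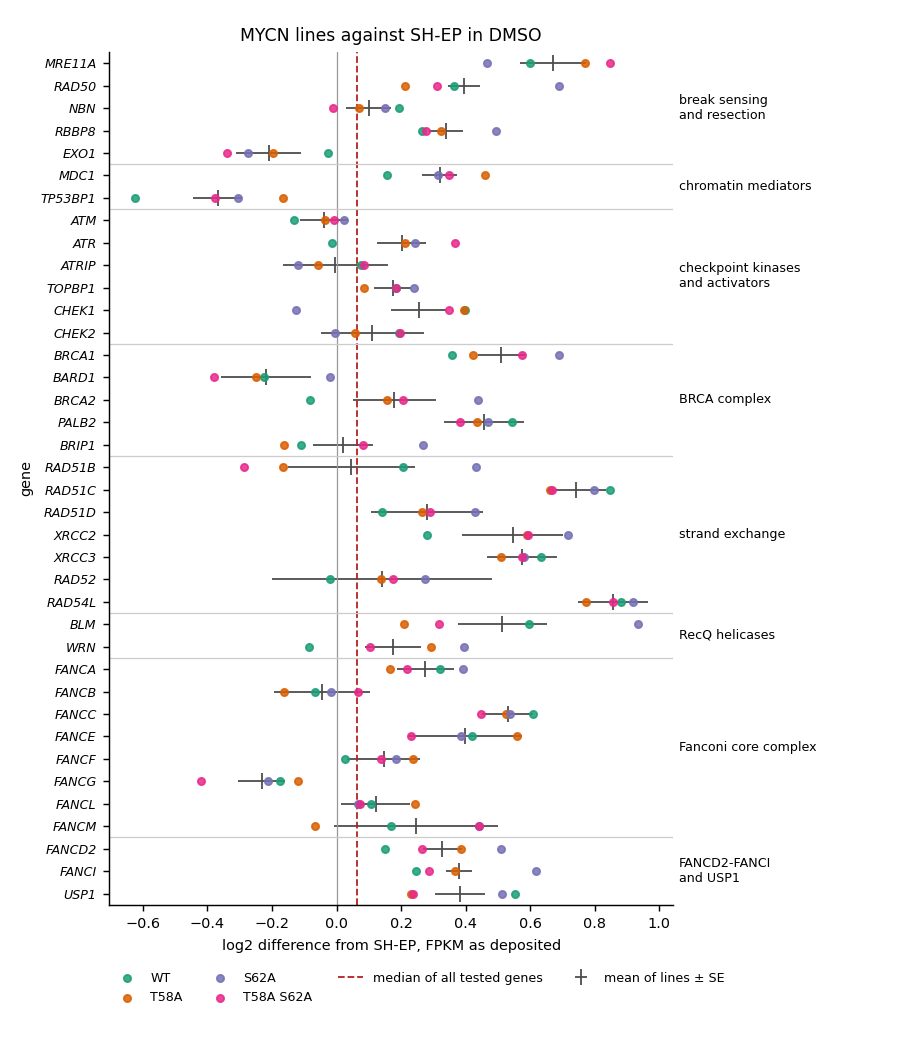
Log2 difference of each MYCN line from SH-EP in DMSO (x axis, FPKM as deposited) for the 38 genes by role, with points for the lines, bars for the mean over lines ± SE, and a dashed line at the median of all tested genes (0.06). Of the means over lines, RAD54L, RAD51C, and MRE11A lie farthest to the right and TP53BP1 farthest to the left, while the single point farthest to the right is BLM in S62A at 0.94.

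Among the strand exchange genes, 4 of 7 were higher and none lower, with a median of 0.55. RAD54L (chromosome 1, 46712133 to 46744152 of GRCh37, plus strand), a motor protein that drives strand invasion, had the largest rise of the 38. Its SH-EP libraries held 6.86, 7.23, and 6.75 FPKM, against 14.0, 13.4, and 11.4 in WT, 11.9, 13.8, and 10.3 in T58A, 12.4, 14.4, and 12.9 in S62A, and 12.4, 14.7, and 11.1 in T58A S62A. The groups did not overlap, and the mean log2 difference was 0.86 ± 0.11 (SE, limma adjusted p = 2.47e-07). RAD51C (chromosome 17, 56769934 to 56812972, plus strand), a recombination factor that also binds XRCC3, was at 17.7, 17.1, and 18.9 FPKM in SH-EP and at 25.7 to 34.5, with a median of 30.2, in the 12 MYCN-line libraries. It too had no overlap, at 0.74 ± 0.09 (adjusted p = 1.50e-07). XRCC3, the partner of RAD51C, was at 12.7 to 14.2 FPKM in SH-EP and 18.0 to 22.8 in the MYCN lines (0.57 ± 0.11, adjusted p = 7.37e-05). XRCC2, of the same functional group, rose by 0.55 ± 0.16 (adjusted p = 0.00418), although its lowest MYCN-line library, at 11.9 FPKM, did not exceed the SH-EP range of 11.9 to 12.4. RAD52, which anneals single strands, was at 2.35 to 3.57 FPKM in SH-EP and 2.05 to 4.66 in the MYCN lines and gave no call (0.14 ± 0.34, adjusted p = 0.745). RAD51B and RAD51D gave none either.

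In break sensing and resection, 3 of 5 genes were higher. MRE11A (chromosome 11, 94148736 to 94227051, minus strand), the nuclease of the end-binding complex, held 5.49, 4.85, and 4.27 FPKM in the SH-EP libraries and 6.51 to 10.6, with a median of 7.77, in the MYCN lines, with no overlap (0.67 ± 0.10, adjusted p = 4.44e-06). Its partner RAD50 rose from 16.3 to 16.8 FPKM in SH-EP to 18.8 to 28.3 (0.39 ± 0.05, adjusted p = 3.08e-07), whereas NBN, the third member of the complex, was at 19.7 to 21.3 and 18.3 to 25.7 FPKM and gave no call. RBBP8, the activator of MRE11A, was higher by 0.34 ± 0.05 (adjusted p = 4.89e-06). EXO1, the long-range resection nuclease, was at 25.2, 24.3, and 22.2 FPKM in SH-EP and at 18.7 to 24.6 in the MYCN lines, a difference of -0.21 ± 0.10 that missed the threshold (adjusted p = 0.0764).

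Of the BRCA complex, BRCA1 and PALB2 were higher and the other 3 genes gave no call. BRCA1 (chromosome 17, 41196312 to 41322262, minus strand), the ubiquitin ligase subunit that favours resection, was at 9.57, 10.1, and 9.76 FPKM in SH-EP, at 12.5, 11.7, and 13.7 in WT, 12.1, 14.0, and 13.4 in T58A, 16.8, 15.5, and 15.3 in S62A, and 16.2, 14.8, and 13.1 in T58A S62A. All 12 values lay above SH-EP (0.51 ± 0.07, adjusted p = 1.38e-06). PALB2, the bridge between BRCA1 and BRCA2, did the same, from 6.58 to 6.69 FPKM in SH-EP to 7.72 to 10.3 (0.46 ± 0.12, adjusted p = 0.00284). BRCA2, the central mediator of recombination, overlapped at 2.99 to 3.36 and 2.49 to 4.90 FPKM (0.18 ± 0.13, adjusted p = 0.238). BARD1, the obligate partner of BRCA1, was at 5.25 to 5.42 FPKM in SH-EP and 3.41 to 5.53 in the MYCN lines, a difference opposite in sign to that of BRCA1 but without a call (-0.22 ± 0.14, adjusted p = 0.179).

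The checkpoint genes moved little: in the mean over lines ATR, TOPBP1, and CHEK1 were higher and the other 3 gave no call. Taken by line, ATR was higher in 2 of the 4 MYCN lines and TOPBP1 and CHEK1 in 3 each. Their lowest differences in any line were -0.014, 0.085, and -0.12. ATM was at 5.27 to 5.58 FPKM in SH-EP and 4.18 to 5.84 in the MYCN lines (-0.04 ± 0.08, adjusted p = 0.684). ATR, at 10.5 to 11.2 and 8.60 to 15.6 FPKM, differed by 0.20 ± 0.08 (adjusted p = 0.0234). CHEK1, the kinase that ATR activates, was at 17.6, 17.5, and 14.8 FPKM in SH-EP and at 12.4 to 23.7 elsewhere (0.25 ± 0.09, adjusted p = 0.0124). Without SH-EP DMSO library 3 (libraries are numbered in the order in which their values are given), neither ATR (0.17, adjusted p = 0.114) nor CHEK1 (0.17, adjusted p = 0.145) passed. Of the mediators recruited to modified chromatin at breaks, MDC1 was higher (0.32 ± 0.05, adjusted p = 1.61e-05) and TP53BP1 lower. TP53BP1 (chromosome 15, 43695259 to 43802926, minus strand), which shields ends from resection and so opposes BRCA1, held 13.9, 13.8, and 14.5 FPKM in SH-EP, 9.95, 7.23, and 10.4 in WT, 11.8, 13.4, and 12.4 in T58A, 10.5, 11.6, and 11.9 in S62A, and 10.1, 11.2, and 11.2 in T58A S62A. Every MYCN-line value was below SH-EP (-0.37 ± 0.08, adjusted p = 0.000189).

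Of the helicases, BLM, which dissolves recombination intermediates, was higher (0.51 ± 0.14, adjusted p = 0.00261), with 5.43 to 5.98 FPKM in SH-EP and 6.54 to 12.4 in the MYCN lines, and WRN gave no call (adjusted p = 0.0829). In the Fanconi core complex 2 of 8 genes were higher, FANCA and FANCC, and FANCG was lower. FANCC was at 3.61, 4.22, and 4.28 FPKM in SH-EP and 5.27 to 6.44 in the MYCN lines, with no overlap (0.53 ± 0.08, adjusted p = 3.83e-06). FANCG was at 16.5, 16.4, and 18.2 against 10.1 to 16.2 (-0.23 ± 0.07, adjusted p = 0.00892). Without SH-EP DMSO library 3 its call was lost (-0.18, adjusted p = 0.0840), which left TP53BP1 as the 1 gene lower. FANCB, the X-linked subunit, was at 2.61 to 3.39 and 2.24 to 3.51 FPKM (-0.04 ± 0.15), and the sign turned to 0.071 without SH-EP DMSO library 1. FANCD2 and FANCI, the pair that the core complex ubiquitinates, and USP1, which removes the ubiquitin, were all 3 higher, by 0.33 ± 0.06 for FANCD2 (adjusted p = 4.91e-05), 0.38 ± 0.04 for FANCI (adjusted p = 1.52e-08), and 0.38 ± 0.08 for USP1 (adjusted p = 0.000138).

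Counted by overlap alone, 13 genes had all 12 MYCN-line libraries above all 3 SH-EP libraries (21.8% of all tested genes did) and 2, TP53BP1 and FANCG, had all 12 below (16.5%). By size, 2 of the 38 were in the highest 10% of all tested genes and 0 in the lowest 10%. The direction depends on the scale. Scaled to the ERCC spike-ins, which were added by cell number, the median of all tested genes was -1.17, all 38 genes were lower than in SH-EP (91.2% of all genes were), between -1.61 and -0.38, with RAD54L again the highest. The median of the 38 stood 0.19 above that of all genes on either scale.

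Other genes of neighbouring pathways were counted alongside. Of 63 other repair genes, 24 were higher and 7 lower, with a median of 0.14. The highest were LIG3, a DNA ligase (0.85 ± 0.05, adjusted p = 5.98e-13), NHEJ1, an end-joining factor (0.71 ± 0.13, adjusted p = 3.90e-05), and the helicase RTEL1 (0.67 ± 0.15, adjusted p = 0.000510). The lowest were BRE (-0.57 ± 0.08, adjusted p = 2.39e-06) and FAM175A (-0.53 ± 0.12, adjusted p = 0.000702), both of the BRCA1-A complex, and the histone variant H2AFX (-0.40 ± 0.08, adjusted p = 0.000214). Of 39 replication genes, 36 were higher and 0 lower, with a median of 0.38, and of 28 mitotic genes 13 were higher and 7 lower, with a median of 0.11.

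The mutants were then compared with WT MYCN in DMSO. S62A differed in 10 of the 38 genes, close to the 24.1% of all tested genes that differed, T58A in 5 (23.6% of all), and T58A S62A in 3 (23.7% of all). In S62A, RAD50, RBBP8, TP53BP1, BRCA1, BRCA2, BRIP1, WRN, FANCD2, and FANCI were higher than in WT and CHEK1 was lower. CHEK1 was at 16.8, 12.4, and 16.9 FPKM in S62A and 22.8, 20.7, and 22.2 in WT, without overlap (-0.52 ± 0.11, adjusted p = 0.000905). BRCA2 was at 4.90, 4.18, and 4.21 FPKM in S62A and 3.22, 2.49, and 3.51 in WT, also without overlap (0.52 ± 0.16, adjusted p = 0.0202), and FANCI was at 42.0, 41.8, and 40.8 against 32.2, 29.7, and 34.5 (0.37 ± 0.05, adjusted p = 7.08e-06). In T58A, MDC1, TP53BP1, WRN, and FANCD2 were higher and USP1 lower (-0.32 ± 0.10, adjusted p = 0.0174), and in T58A S62A, MDC1 and ATR were higher and USP1 lower (-0.32 ± 0.10, adjusted p = 0.0196). None of these differences reached 1.5-fold. The directions depend on the scale. Scaled to the spike-ins, 0 of the 38 genes were higher in S62A than in WT and 23 were lower (74.8% of all tested genes). All 38 values were below 0, with a median of -0.53 (-0.71 over all tested genes). Of the 9 genes higher as deposited, RBBP8 was then lower and the other 8 gave no call. On that scale T58A had 3 genes higher (8.13% of all tested genes) and T58A S62A 12 (23.2%), with 0 lower in either. Without WT DMSO library 2 the S62A count fell to 5, and without S62A DMSO library 1 it fell to 6. The transgene itself was lowest in the S62A line, and its part in these differences was not tested.

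CYC065 was compared with DMSO on FPKM scaled to the spike-ins, which were added by cell number, and the 38 genes fell together. The log2 shifts of this scaling varied within groups, from 0.26 to 0.95 in T58A with DMSO. Between lines with DMSO they ranged more widely, with 1.61 to 1.72 in SH-EP and -0.47 to -0.093 in S62A. Scaled values rest on these shifts. In the mean over the 5 lines all 38 were lower, as were 94.4% of all tested genes, so the call alone does not set them apart. Their fall was deeper, with a median log2 change of -2.00 beside -1.20 for all tested genes, and 29 of the 38 lay below that median. The gap of -0.80 was -0.47 with a filter of 5 FPKM, which kept 25 of the 38 genes, and -0.54 with a pseudocount of 1. By line, SH-EP had 37 genes lower (75.7% of all genes), WT 38 (93.7%), T58A 37 (84.2%), S62A 38 (90.2%), and T58A S62A 37 (76.3%), the exception each time being RAD51B. The order of the 38 was alike in all lines, with Spearman correlations of 0.908 to 0.970 over the 10 pairs of lines, beside 0.834 to 0.907 over all tested genes, which share the scaling and depth of their libraries.

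**Figure D2:**
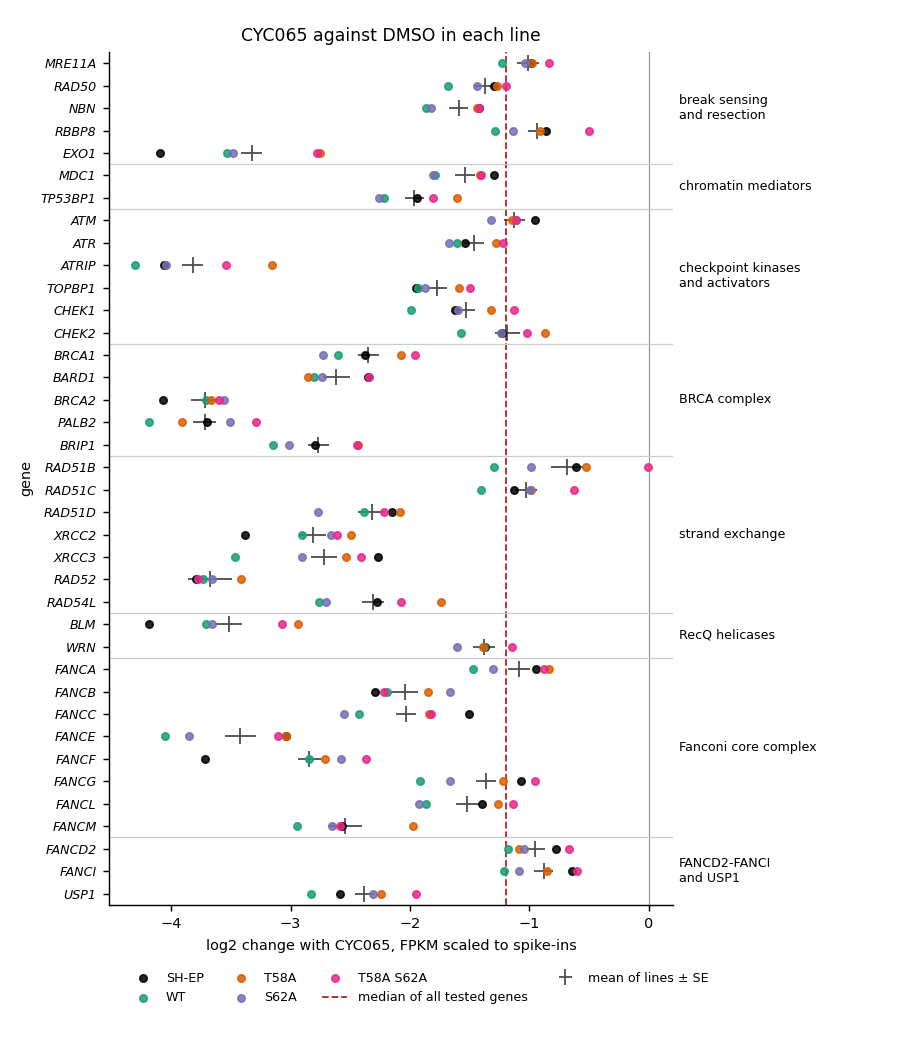
Log2 change with CYC065 in each line (x axis, FPKM scaled to spike-ins) for the 38 genes by role, with points for the 5 lines, bars for the mean over lines ± SE, and a dashed line at the median of all tested genes (-1.20). ATRIP, BRCA2, PALB2, RAD52, and BLM fell most, and RAD51B least.

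On FPKM as deposited, which give a change relative to other transcripts, 26 of the 38 were lower (39.8% of all tested genes), 8 were higher (46.9% of all), and 4, RAD50, CHEK2, WRN, and FANCG, gave no call, with a median of -0.69 beside 0.10 for all genes. Of the genes called, 23.5% were higher among the 38 and 54.1% among all tested genes. Each line had 23 genes lower, where the share of all tested genes was 33.5% for SH-EP, 34.2% for WT, 33.3% for T58A, 34.6% for S62A, and 34.2% for T58A S62A. In all 5 lines 20 genes were lower and 2, RBBP8 and FANCI, were higher, a count that was not made over all tested genes. Counted by overlap, 19 genes had every CYC065 library below every DMSO library in each line (24.4% of all tested genes), and RBBP8 and FANCI had every one above (27.4%). The mesenchymal marker sum as deposited was likewise higher with CYC065 than with DMSO in every line. With CYC065 it was 5586 to 5667 FPKM in SH-EP and 2279 to 2931 in the MYCN lines. The epithelial and leukocyte sums were also higher with CYC065 in every line, so the rise was not specific to mesenchymal markers. The adrenergic sums stayed under 1 FPKM. The part of these sums in the changes of the 38 genes was not tested.

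The BRCA complex fell most as a group: its 5 genes had a median of -2.77 scaled and -1.48 as deposited, and all 5 were lower on both scales. BRCA2 (chromosome 13, 32889223 to 32974405, plus strand) held 3.36, 3.36, and 2.99 FPKM as deposited in SH-EP with DMSO and 0.414, 0.403, and 0.350 with CYC065. It went from 3.22, 2.49, and 3.51 to 0.543, 0.602, and 0.433 in WT, from 3.25, 3.63, and 3.98 to 0.564, 0.499, and 0.502 in T58A, from 4.90, 4.18, and 4.21 to 0.937, 0.634, and 0.685 in S62A, and from 3.48, 4.21, and 3.58 to 0.605, 0.466, and 0.564 in T58A S62A. No CYC065 library reached any DMSO library, and the scaled change was -3.72 ± 0.11 (SE, adjusted p = 1.47e-21), or 7.59% of the DMSO level. PALB2 (chromosome 16, 23614481 to 23652642, minus strand) fell alike, from 6.58 to 10.3 FPKM over the 15 DMSO libraries to 1.00 to 2.47, with medians of 8.96 and 1.45 (-3.72 ± 0.10 scaled, adjusted p = 1.73e-22). BRCA1 fell from 9.57 to 16.8 FPKM to 4.27 to 8.26 (-2.35 ± 0.09, adjusted p = 1.30e-19), less than BRCA2 and PALB2. BARD1 fell by 2.62 and BRIP1, the helicase bound to BRCA1, by 2.77 on the log2 scale.

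**Figure D3:**
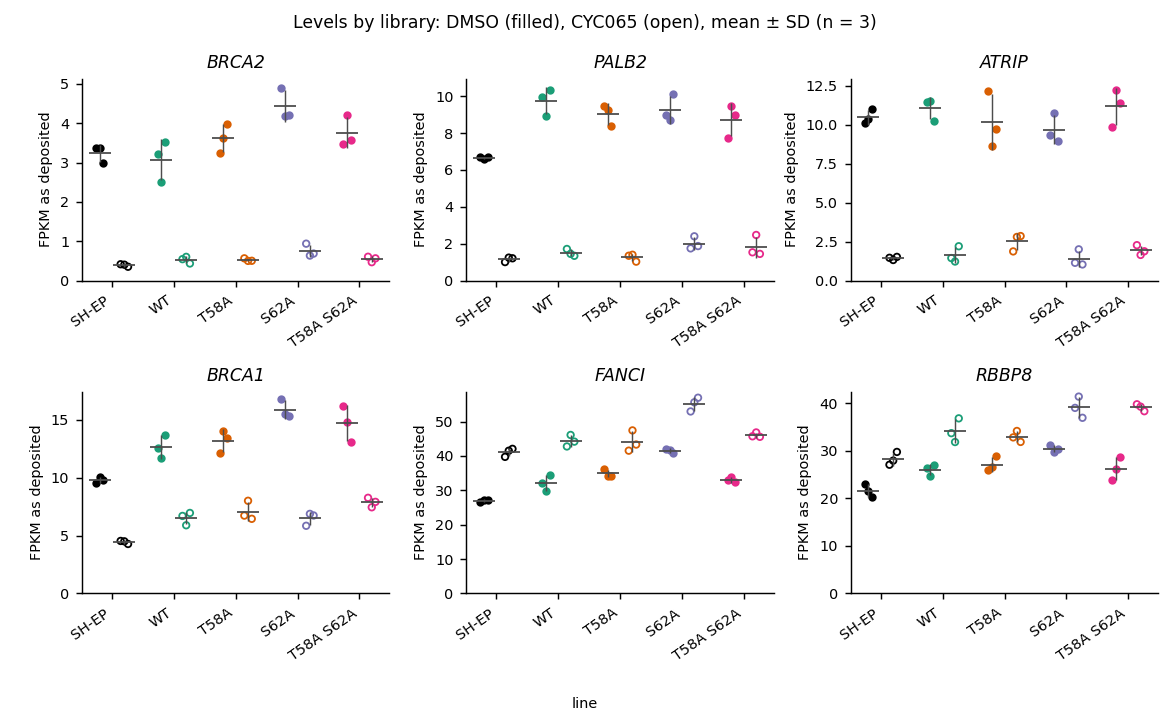
FPKM as deposited (y axis) in each library for BRCA2, PALB2, ATRIP, BRCA1, FANCI, and RBBP8 by line, with filled points for DMSO, open points for CYC065, and bars for the mean ± SD (n = 3). The first 4 genes fell in every line with CYC065, and FANCI and RBBP8 were higher relative to other transcripts.

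Of the checkpoint genes, ATRIP (chromosome 3, 48488114 to 48509044, plus strand), the partner that brings ATR to single-stranded DNA, had the largest fall of the 38, while ATR itself fell much less. ATRIP held 10.1, 10.4, and 11.0 FPKM in SH-EP with DMSO and 1.46, 1.32, and 1.52 with CYC065, and over all lines 8.63 to 12.3 with DMSO and 1.03 to 2.86 with CYC065 (-3.82 ± 0.09 scaled, adjusted p = 2.66e-23). Its exons share 1448 bases with TREX1 on the same strand, so fragments there cannot be told apart. ATR was at 8.60 to 15.6 and 8.40 to 13.3 FPKM (-1.47 ± 0.08 scaled, adjusted p = 1.14e-15, and -0.14 ± 0.04 as deposited, adjusted p = 0.00473). ATM was at 4.18 to 5.84 and 4.76 to 7.53 FPKM, with -1.13 ± 0.09 scaled (adjusted p = 1.58e-12) but 0.19 ± 0.04 as deposited (adjusted p = 0.000289). CHEK1, which shares 53 exonic bases with STT3A, was at 12.4 to 23.7 and 12.2 to 21.6 FPKM (-1.53 ± 0.08 scaled, adjusted p = 1.45e-16). The mediators MDC1 and TP53BP1 fell by 1.54 and 1.96 on the scaled log2 scale.

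Strand exchange genes divided. RAD52 (chromosome 12, 1020902 to 1099219, minus strand) fell from 2.05 to 4.66 FPKM with DMSO to 0.234 to 1.18 with CYC065 (-3.67 ± 0.19 scaled, adjusted p = 1.02e-16), the least precise of the large falls. XRCC2, XRCC3, RAD51D, and RAD54L fell by 2.81, 2.72, 2.32, and 2.31. RAD51C and RAD51B fell least and were higher as deposited. RAD51C was at 17.1 to 34.5 FPKM with DMSO and 17.2 to 47.6 with CYC065 (-1.03 ± 0.09 scaled, adjusted p = 1.55e-11, and 0.31 ± 0.05 as deposited, adjusted p = 5.37e-06). RAD51B (chromosome 14, 68286496 to 69196935, plus strand), the longest gene of the 38 with a span of 910 kb, was at 1.12 to 3.08 and 1.99 to 4.22 FPKM (-0.69 ± 0.13 scaled, adjusted p = 2.47e-05, and 0.60 ± 0.11 as deposited, adjusted p = 2.58e-05), with a scaled change of -0.0086 in T58A S62A.

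In break sensing, the end-binding complex fell moderately and EXO1 steeply. EXO1 was at 18.7 to 25.2 FPKM with DMSO and 2.59 to 7.59 with CYC065 (-3.33 ± 0.09 scaled, adjusted p = 2.58e-22). MRE11A was at 4.27 to 10.6 and 4.90 to 11.9 FPKM (-1.01 ± 0.09 scaled, adjusted p = 6.80e-11, and 0.31 ± 0.06 as deposited, adjusted p = 2.76e-05), and RAD50 and NBN fell by 1.38 and 1.59. RBBP8 went, as deposited, from 23.1, 21.6, and 20.2 FPKM to 27.1, 27.9, and 29.8 in SH-EP, and from 26.3, 24.7, and 27.0 to 33.7, 31.8, and 36.8 in WT. In T58A it went from 26.0, 26.5, and 28.8 to 32.8, 34.2, and 31.9, in S62A from 31.3, 29.7, and 30.5 to 39.0, 41.4, and 36.9, and in T58A S62A from 23.9, 26.2, and 28.6 to 39.8, 39.3, and 38.3. In every line its share of the transcripts was higher with CYC065 (0.40 ± 0.03, adjusted p = 5.13e-12), while the scaled level fell by 0.94 ± 0.07 (adjusted p = 2.64e-12).

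Among the Fanconi genes, FANCI, FANCD2, and FANCA of the core complex were higher with CYC065 as deposited. FANCI was at 26.6 to 42.0 FPKM with DMSO and 39.7 to 56.9 with CYC065, without overlap within any line (0.46 ± 0.02 as deposited, adjusted p = 1.52e-15, and -0.88 ± 0.08 scaled, adjusted p = 1.80e-11). FANCD2 was at 8.91 to 14.0 and 12.2 to 19.7 FPKM (0.38 ± 0.03 as deposited, adjusted p = 1.75e-10, and -0.95 ± 0.08 scaled, adjusted p = 5.88e-12). USP1 went the other way, with 30.2 to 49.8 FPKM in DMSO and 11.7 to 25.4 in CYC065 (-1.05 ± 0.04 as deposited, adjusted p = 4.61e-17, and -2.38 ± 0.08 scaled, adjusted p = 1.71e-20). The 8 core genes had a scaled median of -2.04 and ranged from -3.42 for FANCE to -1.09 for FANCA, which was at 0.24 ± 0.05 as deposited (adjusted p = 8.32e-05). FANCE, which links the core complex to FANCD2, was at 3.96 to 7.28 and 0.757 to 1.95 FPKM (-3.42 ± 0.13, adjusted p = 1.66e-19). The helicases differed, BLM falling from 5.43 to 12.4 FPKM to 0.439 to 2.47 (-3.51 ± 0.11, adjusted p = 4.02e-21) and WRN by 1.38.

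**Figure D4:**
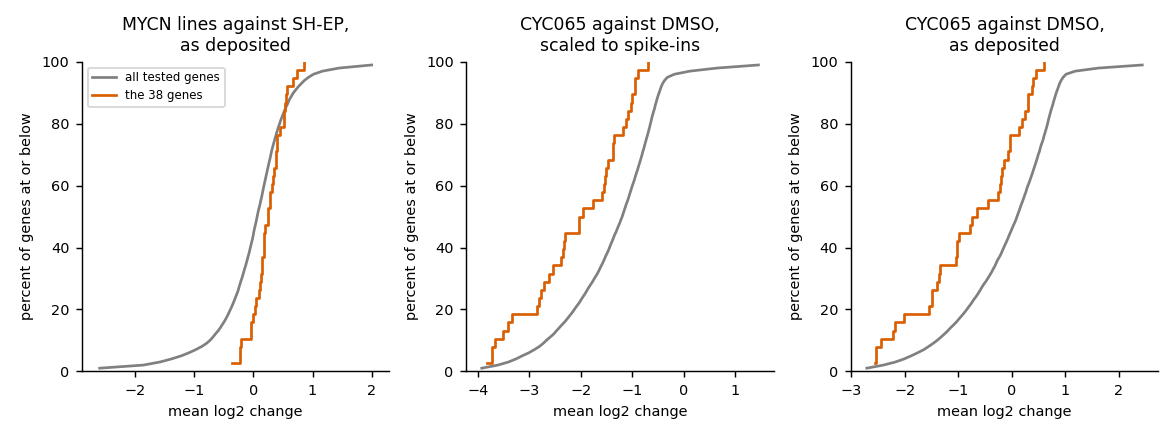
Percent of genes at or below each mean log2 change (x axis) for the 38 genes (steps) and for percentiles 1 to 99 of the 11575 tested genes (line), for the MYCN lines against SH-EP and for CYC065 against DMSO on both scales. The CYC065 curves of the 38 genes lie to the left of all genes, with medians of -2.00 and -1.20 scaled and -0.69 and 0.10 as deposited.

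In the ranking of all tested genes by scaled CYC065 change, 7 of the 38 were in the lowest 5%, 11 in the lowest 10%, and 0 in the highest 10%. The 63 other repair genes were all lower too, with a median of -1.69. SLX4, the scaffold of structure-specific nucleases, fell by 4.16 ± 0.13 (adjusted p = 6.19e-21), EME1, a nuclease subunit, fell by 3.72 ± 0.11 (adjusted p = 1.92e-21), and the Holliday junction resolvase GEN1 fell by 3.46 ± 0.09 (adjusted p = 2.88e-22). The smallest falls were those of BRE at 0.53 ± 0.09 (adjusted p = 1.93e-06), the ubiquitin ligase RNF168 at 0.51 ± 0.09 (adjusted p = 6.85e-06), and SHFM1, which binds BRCA2, at 0.48 ± 0.08 (adjusted p = 1.92e-06). The 39 replication genes had a median of -1.47 and the 28 mitotic genes one of -1.98.

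Gene span, the full length of the annotated gene, was set against the change. Which starts and transcripts of a gene these cells use was not examined. The 38 genes span 3.29 to 910 kb with a median of 76.9 kb, beside 31.7 kb over the 11214 tested genes with an annotated span. Over the 38, shorter genes fell more (Spearman's rho = 0.32 between span and scaled change), whereas over all tested genes rho was -0.14. The 8 genes under 30 kb had a median of -2.55, the 7 of 30 to 60 kb -2.31, the 14 of 60 to 120 kb -1.68, and the 9 above 120 kb -1.47, while the same classes over all tested genes were at -1.09, -1.27, -1.31, and -1.33. The mean DMSO level had a rho of 0.24 with the change over the 38 and 0.18 over all. These values are descriptions across genes from the same libraries.

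**Figure D5:**
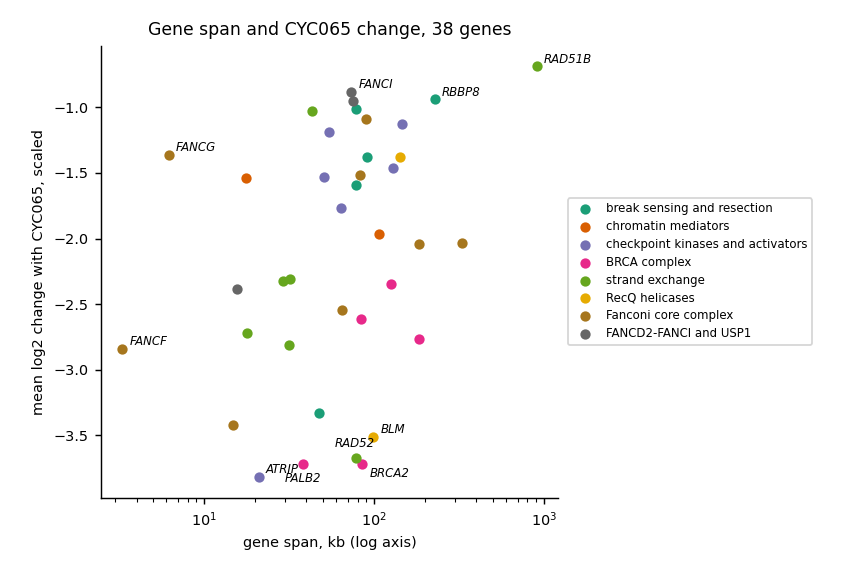
Gene span in kb (x axis, log scale) and mean log2 change with CYC065 (y axis, FPKM scaled to spike-ins) for the 38 genes, coloured by role. ATRIP and PALB2, of 20.9 and 38.2 kb, lie lowest with BRCA2 and RAD52, of 85.2 and 78.3 kb, while RAD51B is the longest and fell least.

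An interaction term on the scaled values asked if the CYC065 change differed between the MYCN lines and parental SH-EP. In the mean over the 4 lines 2 genes differed (6.1% of all tested genes), EXO1 and FANCF, and both fell less in the MYCN lines. As deposited, EXO1 had 2.59, 3.90, and 3.42 FPKM in SH-EP with CYC065, against 6.55, 5.77, and 6.63 in WT, 6.52, 6.77, and 7.59 in T58A, 5.68, 3.58, and 5.06 in S62A, and 5.79, 5.78, and 5.51 in T58A S62A. Its scaled log2 change was -4.09 in SH-EP and -3.53 to -2.75 in the MYCN lines, a difference of 0.96 ± 0.22 (adjusted p = 0.00789). FANCF, an adaptor of the core complex, had 0.795, 0.953, and 0.946 FPKM as deposited in SH-EP with CYC065 and 1.80 to 2.84 in the MYCN lines, and its scaled log2 change was -3.72 in SH-EP and -2.85 to -2.37 elsewhere, a difference of 1.09 ± 0.24 (adjusted p = 0.00482). Scaled to the spike-ins, the CYC065 levels overlapped, at 3.69 to 5.60 in SH-EP and 0.930 to 5.62 in the MYCN lines for EXO1, and at 1.11 to 1.37 and 0.704 to 2.31 for FANCF. The scaled DMSO levels did not overlap, at 71.4 to 82.8 in SH-EP and 14.6 to 41.5 in the MYCN lines for EXO1, and at 15.4 to 19.9 and 4.25 to 12.9 for FANCF. With the 21 spike-ins of at least 50 FPKM in place of 55, neither passed (EXO1 adjusted p = 0.160, FANCF adjusted p = 0.139).

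Taken singly, the WT line differed from SH-EP in 4 genes (18.1% of all tested genes), the T58A line in 1 (2.59%), the S62A line in 2 (4.95%), and the T58A S62A line in 2 (5.41%), contrasts that share the SH-EP libraries. XRCC3, FANCC, and FANCG fell more in WT than in SH-EP and FANCF less, and FANCC also fell more in S62A. EXO1 fell less in T58A and T58A S62A, and FANCF fell less in S62A and T58A S62A. The typical tested gene also fell more than in SH-EP, with a median difference of -0.52 for WT and -0.29 for S62A. For the double mutant this median was 0.08, and for T58A alone -0.01. The deeper falls of XRCC3, FANCC, and FANCG were therefore partly shared with other genes. Over fits that each left out 1 library, the counts were 0 to 5 for WT, 1 to 2 for T58A, 0 to 2 for S62A, and 2 to 3 for T58A S62A. The WT count was 0 without any 1 of the 3 SH-EP DMSO libraries, SH-EP CYC065 library 1 or 2, WT DMSO library 2, or WT CYC065 library 1 or 3. The S62A count was 0 without SH-EP DMSO library 1, and 1 without any 1 S62A DMSO library, S62A CYC065 library 1 or 2, or SH-EP CYC065 library 1 or 3. The T58A count was 2 without T58A DMSO library 2 or 3, T58A CYC065 library 1, or SH-EP CYC065 library 1 or 2, and the mean count was 4 without T58A DMSO library 1. As deposited, 10 genes differed in the mean, beside 33.3% of all tested genes.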

How the data were processed

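RNA-Seq was analysed from SH-EP and 4 SH-EP MYCN lines, each with DMSO or 1 μM CYC065 for 6 hours, in 30 libraries with groups taken from the sample labels. ERCC RNA was added by the authors in proportion to cells, poly(A) libraries kept the strand, HISAT2 placed the reads on GRCh37 (hg19), and Cufflinks gave the FPKM that were deposited. The annotation is not given in the sources used here. The deposited FPKM are not scaled to spike-ins. The number of columns from samples outside the series was 0, and 0 pairs of libraries were identical (correlations within groups 0.925 to 0.959). Columns carry no replicate number that matches the labels. Since FPKM hold no read counts, no count test or counting interval was used. A value of exactly 0.01 occurred 4125 times.

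Genes averaging 1 FPKM or more (11575) were taken as log2(FPKM + 0.1) and fitted with limma 3.58.1 in R 4.3.3 (trend = TRUE) over the 10 groups. Lines were compared as deposited, and treatments after equalizing the median of 55 of 92 spike-ins. For genes of low level this scale makes changes too small. The genes and lists were chosen with earlier results of these data known. Values are printed for the 6 genes with the largest and the 6 with the smallest mean change in each kind of comparison, for BRCA1, BRCA2, ATM, ATR, CHEK1, FANCD2, and RAD52, and for some others chosen after their values were seen. Positions are from GENCODE release 44 lifted to GRCh37, where RAD50, RAD51D, and FANCG share exonic bases with a gene listed only by its identifier, and promoters from RefSeq GRCh38.p14. Alternatives were other pseudocounts, filters, scalings, spike-ins, fits of only the groups compared, a minimum change, and leave-one-out fits. On simulated data for the comparison of lines in DMSO (11575 genes), 168 of 200 changed genes were recovered and 13 unchanged genes were called.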

Additional observations from a re-analysis of the deposited data

Results flagged for a closer look

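By a test of the interaction itself, CYC065 changed a gene differently in SH-EP and in a MYCN line, or the mean of these lines, in 11 results, given here as differences in log2 change on FPKM scaled to spike-ins. For EXO1 the difference was 1.34 ± 0.28 (SE) in T58A (limma adjusted p = 0.00698), 1.31 ± 0.28 in T58A S62A (adjusted p = 0.00383), and 0.96 ± 0.22 in the mean (adjusted p = 0.00789). FANCF differed by 0.87 ± 0.31 in WT (adjusted p = 0.0488), 1.14 ± 0.31 in S62A (adjusted p = 0.0273), 1.35 ± 0.31 in T58A S62A (adjusted p = 0.00628), and 1.09 ± 0.24 in the mean (adjusted p = 0.00482). Both fell less in the MYCN lines. The reverse held for FANCC, at -0.93 ± 0.26 in WT (adjusted p = 0.0314) and -1.05 ± 0.26 in S62A (adjusted p = 0.0162), for XRCC3 in WT at -1.20 ± 0.34 (adjusted p = 0.0326), and for FANCG in WT at -0.84 ± 0.27 (adjusted p = 0.0380). Of the 38 genes, 10.5% were called in WT, 2.63% in T58A, 5.26% in S62A, 5.26% in T58A S62A, and 5.26% in the mean. Over all tested genes the shares were 18.1%, 2.59%, 4.95%, 5.41%, and 6.1%, so these calls do not set the 38 apart. The median difference over all tested genes was -0.52 in WT, -0.29 in S62A, and -0.20 in the mean. The WT count was 0 to 5 over leave-one-out fits. With spike-ins of at least 50 FPKM, neither EXO1 nor FANCF passed in the mean. All of these results share the 6 SH-EP libraries, and the library pool and the line cannot be told apart. Groups of 3 libraries were not examined for outlying libraries.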

How the results depend on the processing

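No paired analysis was possible because the columns carry no replicate numbers that match the labels. The median CYC065 change of the 38 genes relative to all tested genes (-0.80) was -0.54 with a pseudocount of 1, -1.18 with no filter, and -0.47 with a filter of 5 FPKM, and was -0.81 to -0.78 over leave-one-out fits. With that filter 25 genes were tested and 25 were lower with CYC065, and with libraries centred on their median 22 were lower and 11 higher, against 8 higher as deposited. Over leave-one-out fits the counts lower and higher were 38 to 38 and 0 to 0. The mean interaction, with 2 genes, gave 5 with a pseudocount of 1, 1 with the filter of 5 FPKM, and 2 to 4 over leave-one-out fits. It gave 10 as deposited, beside 33.3% of all tested genes, and 8 centred. In limma with spike-ins of at least 50 FPKM it gave 0, where 5 had an unadjusted p under 0.05. In the MYCN lines, 0 genes were higher and 38 lower with spike-in scaling, and 3 higher and 0 lower with a change of 1.5-fold required, and leave-one-out fits gave 17 to 20 higher, 1 to 2 lower, and a median of 0.15 to 0.21 above all genes. Against WT, S62A gave 23 genes with spike-in scaling (0 higher and 23 lower, against 9 and 1 as deposited), 0 with 1.5-fold, 5 in a fit of only the groups compared, and 5 to 11 over leave-one-out fits. In the same order T58A S62A gave 12 (all higher), 0, 1, and 2 to 4, and T58A 3 (all higher), 0, 2, and 4 to 6. With spike-in scaling, 75.0% of all tested genes were called in S62A, 24.2% in T58A S62A, and 8.59% in T58A. With 1.5-fold required, 0 passed in each mutant at an unadjusted p too.

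Signs turned with the scale. As deposited and centred, the CYC065 changes were 0.19 and 0.35 for ATM, 0.38 and 0.54 for FANCD2, 0.46 and 0.62 for FANCI, 0.31 and 0.48 for MRE11A, 0.60 and 0.76 for RAD51B, 0.31 and 0.47 for RAD51C, and 0.40 and 0.56 for RBBP8, and ATR was at 0.028 centred. With spike-in scaling, the MYCN differences were -1.04 for ATR, -0.73 for BRCA1, -1.05 for BRCA2, -0.99 for CHEK1, -0.70 for FANCC, -0.91 for FANCD2, -0.56 for MRE11A, -0.50 for RAD51C, -1.08 for RAD52, -0.38 for RAD54L, -0.70 for XRCC2, and -0.67 for XRCC3. FANCB was at -0.11 to 0.071 over leave-one-out fits. The scalings turn the signs by construction, and the other causes were not tested. The lower depth after CYC065 limits the precision of levels under 1 FPKM.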
